A study of Danio rerio with 17 samples.

Results

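Kruppel-like factors (KLFs) other than klf9 were followed in the brains of adult zebrafish after an injection of domoic acid (DA), an algal excitotoxin that activates glutamate receptors of neurons. The genes were those whose platform symbol is klf followed by a digit, with klf9 left out. They number 11 genes read by 11 probe sets, 1 each, of 8793 named genes and 15502 probe sets tested: klf1, klf2a, klf2b, klf3, klf4, klf6a, klf7b, klf10, klf11a, klf11b and klf17. RefSeq names 22 klf genes in zebrafish, of which 10 have no probe set by symbol here and are not analysed here.

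All fish were wild type of the AB strain and were injected into the body cavity at 1 year of age, in a volume of 10 µL. DA fish received 1.1 ± 0.2 µg of DA per g of body weight, a dose that the series title calls symptomatic, and control fish received the phosphate-buffered saline vehicle. Brains were taken 24, 48 or 168 h later from 10 to 12 fish per treatment and time, and each array read the pooled RNA of 3 to 4 whole brains. There were 3 DA and 3 control arrays at 24 h, 3 DA and 2 control arrays at 48 h, and 3 DA and 3 control arrays at 168 h. The labels give neither the sex of the fish nor a hybridisation batch, so time and any batch that went with it cannot be told apart. Since each sample is a pool, p-values measure the spread between pools.

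KLFs are transcription factors with zinc fingers at the C-terminal end that bind GC-rich and CACCC sequences, and they differ in the N-terminal regions that recruit activators or repressors. klf2 and klf4 are known from vascular endothelium, where blood flow induces them, and klf1 drives the red cell programme. klf10 and klf11 were named for their induction by TGF-beta, and mammalian Klf6 and Klf7 are known for promoting axon growth in neurons.

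The deposited values are log2 levels from the RMA procedure, 1 per probe set and array, and changes are differences of log2 group means from a fit with limma over all 17 arrays. A probe set is called where its p-value is under 0.05 after Benjamini-Hochberg adjustment across the 15502 probe sets. Array medians lay between 6.10 and 6.23, and precision is limited by how few arrays a group has. The 17 blanks, control tags with no zebrafish target, had a mean of 5.74 on DA replicate 1 at 24 h and of 4.94 to 5.18 on the 16 other arrays. The difference between the 3′ and 5′ GAPDH probe sets, a measure of RNA integrity, was 4.63 for control replicate 3 at 24 h and no more than 3.70 for any other array. The mean of the hybridisation spike-ins was 9.49 to 10.6 on DA arrays against 10.4 to 11.0 on control arrays at 24 h, 9.27 to 9.40 against 9.70 to 10.8 at 48 h, and 9.44 to 10.0 against 9.55 to 9.71 at 168 h. Markers of neurons, with a mean level of 11.4 to 11.9, of radial glia, at 10.7 to 11.2, and of oligodendrocytes, at 9.44 to 10.1, were far above the blanks on every array.

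Across the 17 arrays klf11a covered the widest range of the 11 genes, 1.65 on the log2 scale, and klf3 the narrowest, 0.45, where the median probe set covered 0.67. The within-group SD ran from 0.09 for klf10 to 0.37 for klf7b, around a median of 0.16 over all probe sets. Of the genes, 7, namely klf2b, klf3, klf4, klf6a, klf7b, klf11a and klf17, were above the blank mean of their array on all 17 arrays, and klf2a was on 16. klf10 was above it on 7 arrays, klf1 on 1 and klf11b on 0, so these last genes were at or below the blank mean on most arrays.

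**Figure D1:**
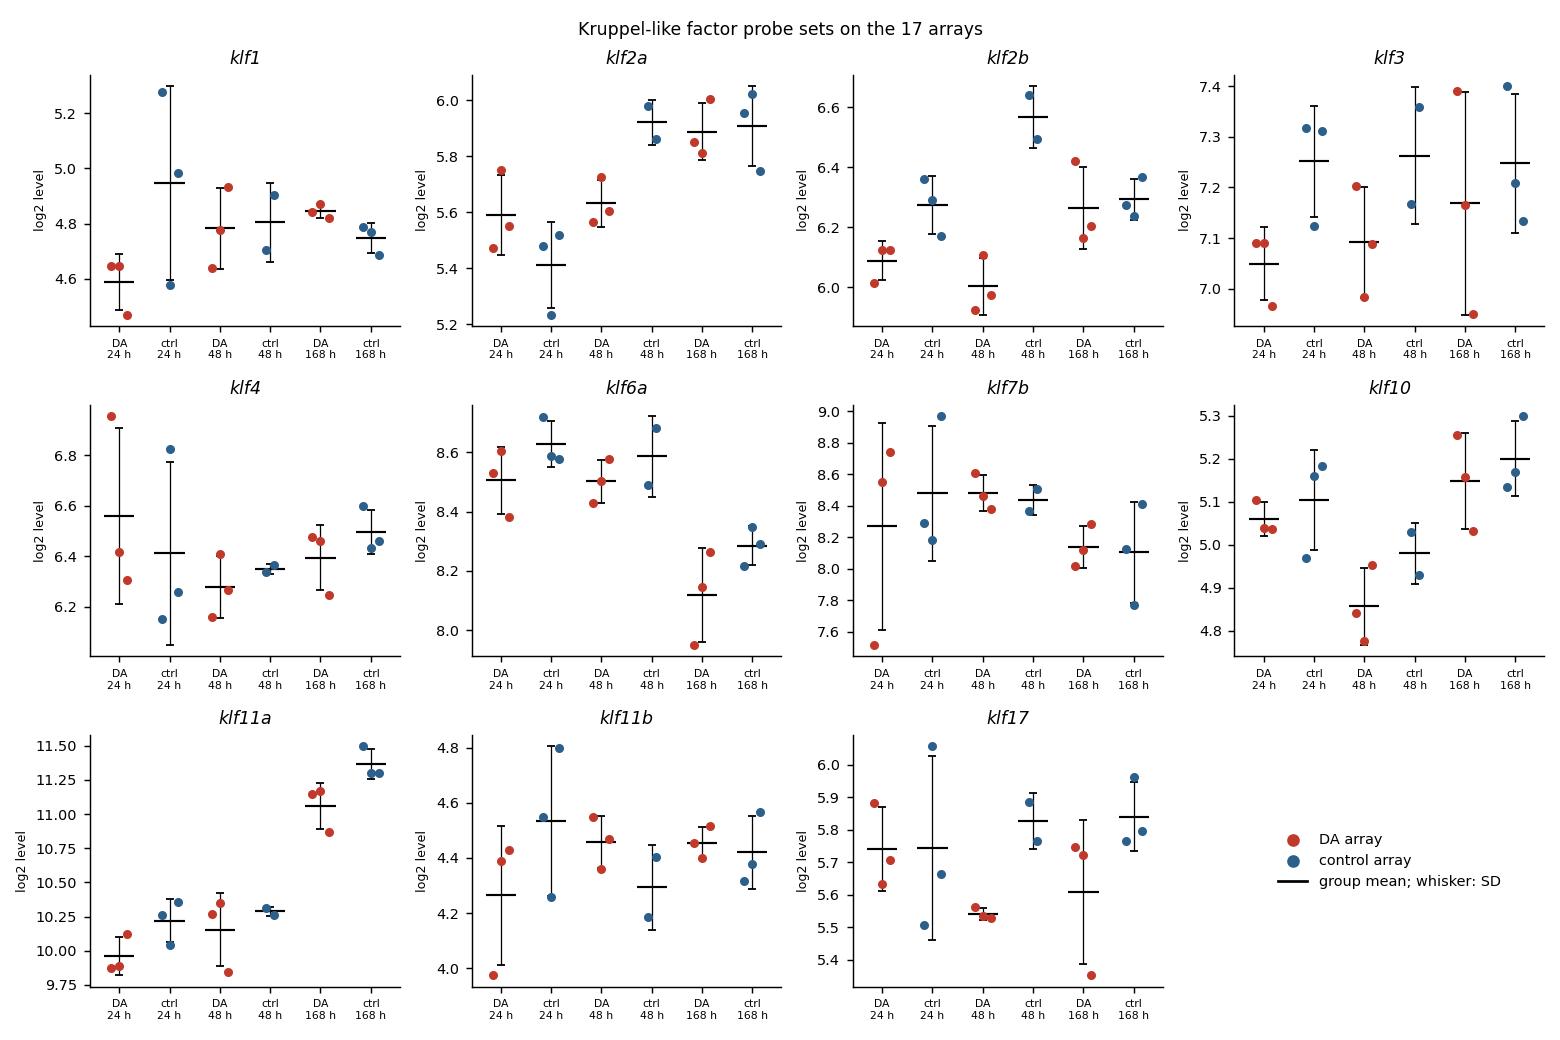
Log2 level of each of the 11 KLF probe sets on the 17 arrays, with 24, 48 and 168 h from left to right and DA (red) left of control (blue) at each time. Bars are group means and whiskers are SDs over 3 arrays (2 for controls at 48 h), and each panel has its own scale. klf11a stands above 10.8 on all 168 h arrays and below 10.4 on all others, klf6a is lowest at 168 h, and klf2b is lower in DA brains than in controls at 48 h.

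No KLF was called for DA against control at any time, whereas klf11a was called for time in both treatments. At 24 h 0 of 11 genes passed in limma, where 0.0323% of all probe sets did, and 1 of 11 had an unadjusted p under 0.05, where 13.4% of all probe sets had. At 48 h 0 of 11 passed against 0% of all probe sets, and 2 of 11 had an unadjusted p under 0.05 against 4.73%. At 168 h 0 of 11 passed against 0%, and 1 of 11 had an unadjusted p under 0.05 against 3.02%. The 4 genes with an unadjusted p under 0.05 at any time were all lower in DA brains there: klf1 at 24 h, where 7.91% of all probe sets were lower in this way, klf2a and klf2b at 48 h, against 2.12%, and klf11a at 168 h, against 1.81%.

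Small negative differences were common. The DA mean lay below the control mean for 9 of 11 genes at 24 h, where 48.2% of all probe sets did, for 9 of 11 at 48 h against 49.8%, and for 8 of 11 at 168 h against 57.3%. The median change of the 11 genes was -0.19, -0.12 and -0.05 at the 3 times, beside 0.01, 0.00 and -0.02 over all probe sets. The mean DA effect over the 3 times was below 0 for 11 of 11 genes against 50.2% of all probe sets, but 9 to 11 of 11 under the alternatives that kept every gene, and its median was -0.09. Without the 2 arrays that stood apart at 24 h, 8 of 11 genes lay below 0 at 24 h, with a median of -0.13, and 9 of 11 in the mean effect. At 24 h the count was 7 of 11 with the GAPDH difference as a covariate, and at 48 h it was 7 of 11 without control replicate 2 at 48 h, with a median of -0.08. At 168 h the count was 6 of 11 with each array's median subtracted, with repeated quantile normalisation, with cyclic loess, without DA replicate 2 at 168 h and without DA replicate 3 at 168 h. Leaving out 1 array moved the median at 168 h between -0.03 without DA replicate 3 and -0.11 without DA replicate 1. These differences are mostly within the spread between arrays, and the genes share the same arrays.

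**Figure D2:**
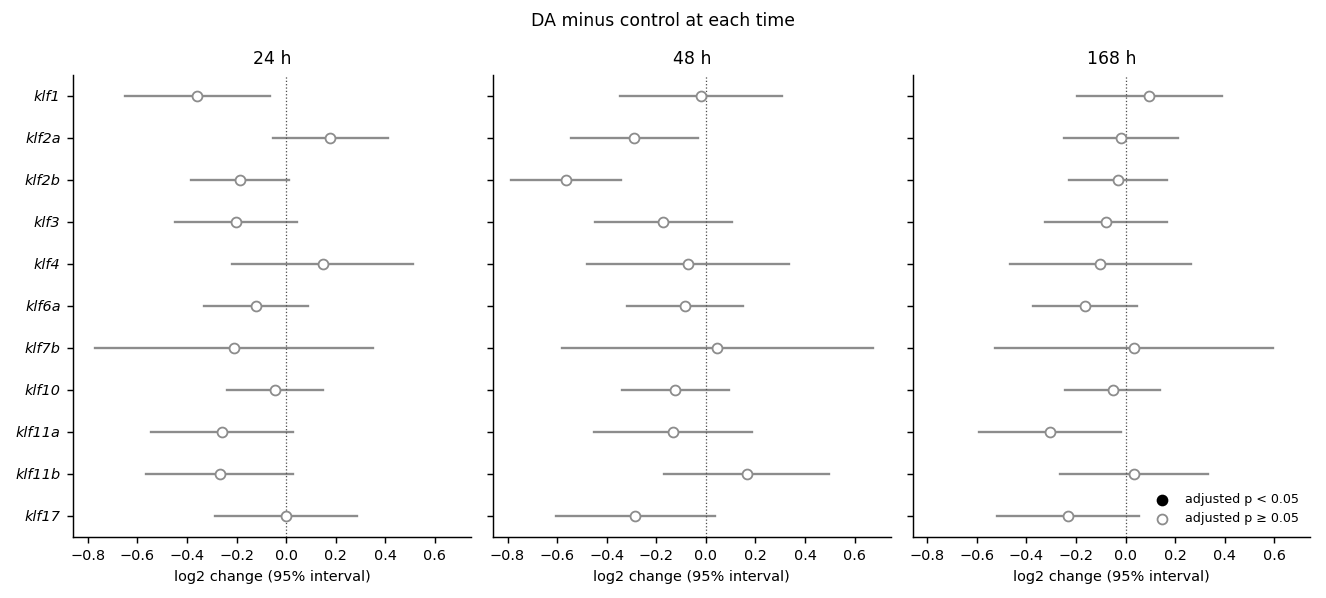
DA minus control on the log2 scale for each KLF gene at 24, 48 and 168 h, with 95% intervals from the limma fit. All points are open because no adjusted p was under 0.05. The interval of klf2b at 48 h, from -0.79 to -0.34, lies farthest below 0.

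The lowest unadjusted p of the 3 DA comparisons belonged to klf2b, a zebrafish copy of the flow-induced endothelial factor, which had a lower level in DA brains than in controls at 48 h. At 24 h klf2b read 6.01, 6.13 and 6.13 in DA brains, against 6.36, 6.29 and 6.17 in control brains. At 48 h it read 5.93, 6.11 and 5.98 in DA brains, against 6.64 and 6.49 in control brains. At 168 h it read 6.42, 6.17 and 6.20 in DA brains, against 6.27, 6.24 and 6.37 in control brains. Both 48 h controls were above all 15 other arrays, a gap not counted over all probe sets. The DA arrays lay below all controls of their time at 24 h and at 48 h, as they did for 7.92% and 14% of all probe sets. The groups overlapped at 168 h.

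The difference at 48 h was -0.56 (SE 0.10, 95% interval -0.79 to -0.34), a level 1.48-fold lower in DA brains. It had an unadjusted p of 6.57e-05, rank 3 of 15502, and did not pass in limma, with an adjusted p of 0.340. Over 30 alternative settings it ran from -0.64 to -0.47, with an unadjusted p under 0.05 in 30 and an adjusted p under 0.05 in 0. Leaving out arrays of 24 h or 168 h could not move this 48 h difference, only the spread it was set against. The threshold of 0.10 moved neither. At 24 h the difference was -0.19 (95% interval -0.38 to 0.01) and at 168 h -0.03 (95% interval -0.23 to 0.17). The mean effect of -0.26 (SE 0.06, 95% interval -0.38 to -0.14) had an adjusted p of 0.110 in limma, where 0% of all probe sets passed and 7.68% had an unadjusted p under 0.05. That p fell under 0.05 in 3 alternatives: 0.0243 with array weights, 0.0215 without DA replicate 1 at 168 h, and 0.0477 without DA replicate 1 and control replicate 3 at 24 h.

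Whether the DA effect differed between times was tested for klf2b. The effect at 168 h minus that at 48 h was 0.53 (SE 0.14, 95% interval 0.24 to 0.83), rank 12 of 15502 with an unadjusted p of 0.00159 and an adjusted p of 1.0 in limma. Over the 3 times the F test gave 0.00517 unadjusted and 0.742 adjusted, and 2 of 11 genes, klf2b and klf2a, had an unadjusted p under 0.05 against 6.26% of all probe sets. None passed, against 0% of all probe sets. The 48 h controls enter both this test and the time comparison of controls, where klf2b stood 0.29 higher at 48 h than at 24 h (adjusted p 0.541) and 0.27 lower at 168 h than at 48 h (-0.27, adjusted p 0.341).

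klf2a, the other zebrafish copy of klf2, differed in the same direction at 48 h. At 24 h klf2a read 5.47, 5.75 and 5.55 in DA brains, against 5.48, 5.23 and 5.52 in control brains. It read 5.57, 5.73 and 5.60 in DA brains at 48 h, against 5.98 and 5.86 in control brains. At 168 h it read 5.85, 5.81 and 6.0 in DA brains, against 5.95, 6.02 and 5.75 in control brains. The groups were apart at 48 h and overlapped at the other times. In controls the 24 h arrays were below all later ones, a gap not counted over all probe sets.

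The change of klf2a at 48 h was -0.29 (SE 0.12, 95% interval -0.55 to -0.03), with an unadjusted p of 0.0303 and an adjusted p of 1.0 in limma. At 24 h it was 0.18 (95% interval -0.05 to 0.41), and the effect at 48 h minus that at 24 h was -0.47 (95% interval -0.81 to -0.12, adjusted p 0.660). klf4, a factor of endothelium, skin and stem cells, was not called: its group ranges overlapped at all 3 times, and its changes were 0.15 (95% interval -0.22 to 0.51), -0.07 (95% interval -0.48 to 0.34) and -0.10 (95% interval -0.47 to 0.26) at 24, 48 and 168 h. Over the arrays klf4 ran from 6.15 in control replicate 1 at 24 h to 6.95 in DA replicate 1 at 24 h, the array with the high blanks. Its 24 h change was -0.05 without that array and 0.35 without control replicate 2 (adjusted p 0.306 in limma, unadjusted p under 0.05).

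Endothelial markers were few on this array and differed less than klf2b at 48 h. Of 26 listed, 8 were measured, and 5 of 8 were lower in DA brains at 48 h, with a median change of -0.08 and 0 called in limma. Of the 8, plvapb alone had an unadjusted p under 0.05, at -0.30, where 2.12% of all probe sets were lower in this way. Their levels summed on the linear scale to 690 to 774 in DA brains and 642 to 817 in control brains at 48 h. The marker cldn5a was at or below the blank mean on 14 arrays and sox17 on 17. In bulk tissue, fewer cells of a type and less RNA per cell cannot be told apart, and the part of cell composition in the klf2b values was not tested. Spike-in levels also differed at 48 h, as given above. With them as a covariate the klf2b change was -0.47 (adjusted p 0.858 in limma), the smallest over the alternatives. In the fit reported it was -0.56 (adjusted p 0.340).

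Genes upstream of klf2 in endothelium, such as the kinase mapk7 and its target mef2d, numbered 7 measured of 21. At 48 h 5 of 7 were lower in DA brains, with a median of -0.07 and 0 called, and 0 had an unadjusted p under 0.05. At 24 h 6 of 7 were lower, with a median of -0.15, and at 168 h 4 of 7, with -0.04. In the mean effect 6 of 7 were below 0, with a median of -0.03. The mean effect of mef2d was -0.33 (unadjusted p 0.0181, adjusted p 0.480 in limma), and mapk7 stood at -0.51 at 24 h (adjusted p 0.299). Endothelial genes linked to klf2 numbered 12 measured of 21; 7 of 12 were lower at 48 h, with a median of -0.02, 0 called and 0 with an unadjusted p under 0.05. The lowest p values there belonged to selenop, at 0.64, and to the lymphatic receptor gene flt4, at -0.21. At 24 h 10 of 12 were higher in DA brains, with a median of 0.18, and at 168 h 10 of 12 were lower, with a median of -0.12. The mean effect was above 0 for 10 of 12, with a median of 0.04, where klf2b was lower. For edn1, the gene of the vasoconstrictor endothelin, the change at 168 h against 24 h was 0.72 in DA brains (adjusted p 0.117 in limma), and in controls it rose by 0.87 (adjusted p 0.0343).

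The erythroid factors klf1 and klf17 had low levels. klf1 read 4.65, 4.65 and 4.47 in DA brains at 24 h, against 5.28, 4.58 and 4.98 in control brains, and the ranges overlapped. Its change of -0.36 (SE 0.14, 95% interval -0.65 to -0.07) had the lowest unadjusted p of the 11 genes at 24 h, 0.0198, with an adjusted p of 0.287 in limma. Leaving out control replicate 1 or control replicate 2 moved this value by about 1.5 times or more: it was -0.19 without control replicate 1 and -0.54 without control replicate 2. Control replicate 1 was the 1 array on which klf1 lay above the blank mean.

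At 48 h klf1 read 4.64, 4.78 and 4.93 in DA brains, against 4.70 and 4.90 in control brains, with overlap. At 168 h it read 4.84, 4.87 and 4.82 in DA brains, against 4.79, 4.77 and 4.69 in control brains. It was the 1 gene of 11 whose DA arrays all lay above the controls at 168 h, where 3.85% of all probe sets did, with a change of 0.10 (95% interval -0.20 to 0.39).

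klf17, known in zebrafish embryos from blood and hatching gland precursors, was not called. Its DA arrays all lay below the controls at 48 h and at 168 h, as they did for 14% and 7.02% of all probe sets. At 24 h klf17 read 5.88, 5.63 and 5.71 in DA brains, against 5.51, 6.06 and 5.66 in control brains. It read 5.56, 5.53 and 5.53 in DA brains at 48 h, against 5.89 and 5.77 in control brains. It read 5.75, 5.72 and 5.35 in DA brains at 168 h, against 5.76, 5.96 and 5.80 in control brains. The 3 DA arrays at 48 h lay close together, and at 168 h DA replicate 3 was the lowest of all 17 arrays. The changes were -0.29 (95% interval -0.61 to 0.03, adjusted p 1.0 in limma) at 48 h and -0.23 (95% interval -0.52 to 0.05, adjusted p 0.999) at 168 h, the last of which was -0.11 without DA replicate 3.

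Groups not overlapping were not rare in so small a design. At 24 h 2 of 11 genes, klf2b and klf3, had every DA array below every control array, where 7.92% of all probe sets had. At 48 h 3 of 11 did, klf2a, klf2b and klf17, against 14% of all probe sets, and at 168 h 2 of 11 did, klf11a and klf17, against 7.02%. In the other direction the counts were 0 of 11 at 24 h and at 48 h, against 4.86% and 13.3% of all probe sets.

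Erythroid genes linked to klf1 and klf17, such as the anion exchanger gene slc4a1a and the globins, numbered 20 measured of 36. They were lower in DA brains for 13 of 20 at 48 h, with a median of -0.05 and 0 called. Of the 20, 3 were lower with an unadjusted p under 0.05, where 2.12% of all probe sets were. Of these, slc4a1a stood at -0.59 (adjusted p 0.779 in limma) and nt5c2l1 at -0.90 (adjusted p 0.842). The level of slc4a1a was at or below the blank mean on 7 arrays. Of the 20 erythroid genes, 14 were higher at 24 h, with a median of 0.08, and 14 were lower at 168 h, with a median of -0.05. Erythroid markers, 9 measured of 11, summed to 6002 to 8654 in DA brains and 8366 to 8715 in control brains at 48 h, and 7 of 9 were lower there with a median of -0.25. The part of red cells in the klf17 values was not tested.

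klf11a, a member of the TGF-beta-inducible pair whose mammalian form recruits the Sin3 co-repressor, was higher at 168 h than at 24 h or 48 h in both treatments. At 24 h klf11a read 9.87, 9.89 and 10.12 in DA brains, against 10.26, 10.04 and 10.36 in control brains. At 48 h it read 10.27, 10.35 and 9.85 in DA brains, against 10.31 and 10.27 in control brains. At 168 h it read 11.15, 11.17 and 10.87 in DA brains, against 11.50, 11.30 and 11.30 in control brains. All 6 arrays at 168 h, from 10.87 to 11.50, lay above all 11 earlier arrays, from 9.85 to 10.36, which held in this direction for 0.29% of all probe sets. Treatments overlapped at 24 h and 48 h and did not at 168 h.

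In DA brains klf11a averaged 11.06 ± 0.17 at 168 h and 9.96 ± 0.14 at 24 h (SD, n = 3 each), a rise of 1.10 (SE 0.13, 95% interval 0.81 to 1.39) or 2.14-fold, with an adjusted p of 0.00418 in limma and rank 2 of 15502. It was the 1 gene of 11 called, where 0.232% of all probe sets were, and 3 of 11 had an unadjusted p under 0.05 against 11.2%. Against 10.16 ± 0.27 in DA brains at 48 h (SD, n = 3) the rise was 0.91 (SE 0.13), or 1.87-fold, with an adjusted p of 0.00493, again 1 of 11 called, against 1.04% of all probe sets, and 5 of 11 with an unadjusted p under 0.05 against 11.7%. Between 48 h and 24 h the change of 0.19 (95% interval -0.09 to 0.48) had an adjusted p of 0.467, with 0 of 11 called in limma against 0.361%, and 1 of 11, klf10, with an unadjusted p under 0.05 against 16.5%.

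In control brains klf11a averaged 11.37 ± 0.11 at 168 h and 10.22 ± 0.16 at 24 h (SD, n = 3 each), a rise of 1.14 (SE 0.13, 95% interval 0.86 to 1.43) or 2.21-fold. This was rank 1 of 15502 with an adjusted p of 0.00502 in limma, 1 of 11 called against 0.445% of all probe sets, and 3 of 11 had an unadjusted p under 0.05 against 11.3%. Against 10.29 ± 0.03 in control brains at 48 h (SD, n = 2) the rise was 1.08 (SE 0.15), or 2.11-fold, with an adjusted p of 0.0107, 1 of 11 called against 0.194%, and 4 of 11 had an unadjusted p under 0.05 against 10.8%. Between 48 h and 24 h it was 0.07 (95% interval -0.25 to 0.39), with 0 of 11 called in limma against 0% and 2 of 11, klf2a and klf2b, with an unadjusted p under 0.05 against 7.1%. The DA and control arrays are different samples, but the fit gives them a common estimate of the spread.

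The size of the rise did not differ detectably between treatments. The DA effect at 168 h minus that at 24 h was -0.04 for klf11a (95% interval -0.45 to 0.36, adjusted p 0.943 in limma), an interval that leaves room for a difference of a fair part of the rise. At 168 h klf11a was 0.30 lower in DA brains than in controls (-0.30, SE 0.13, 95% interval -0.59 to -0.02), with an unadjusted p of 0.0384 and an adjusted p of 0.999, and the value was -0.21 without DA replicate 3. At 24 h the difference was -0.26 (95% interval -0.55 to 0.03) and at 48 h -0.13 (95% interval -0.45 to 0.19). From high to low the group means ran control 168 h, DA 168 h, control 48 h, control 24 h, DA 48 h and DA 24 h, and from the third to the fifth place neighbours differed by less than the spread between arrays. The last neighbours, DA 48 h and DA 24 h, were 0.19 apart, with a within-group SD of 0.17 and an adjusted p of 0.467.

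The F test over the 3 times gave klf11a an adjusted p of 0.00253 in limma among DA brains, where 1.15% of all probe sets passed, and of 0.00362 among controls, where 0.4% passed. It was the 1 gene of 11 called in each, where 5 of 11 in DA brains and 4 of 11 in controls had an unadjusted p under 0.05, against 15.6% and 11.7% of all probe sets. Among controls it missed the threshold without control replicate 2 at 168 h, with an adjusted p of 0.0622, and the counts over all probe sets moved too. The rise from 24 h was called in 29 of 30 alternatives among controls, the exception being the spike-in level as a covariate with 1.07 and an adjusted p of 0.0805. It was called in 29 of 30 among DA brains, the exception being a fit of the DA groups alone with an adjusted p of 0.0591. In these counts and the next ones, leaving out arrays of other groups could not move the size of a rise, only its spread. The rise from 48 h was called in 30 of 30 among DA brains and in 27 of 30 among controls, where leaving out control replicate 1 at 48 h gave an adjusted p of 0.177, control replicate 2 at 48 h 0.0577 and control replicate 1 at 168 h 0.0571.

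Other measures also moved with time. Spike-ins were lower on the 168 h than on the 24 h control arrays, as given above. Of the microglia and leukocyte markers 15 were measured of 20, with csf1ra at or below the blank mean on 17 arrays, cxcr4b on 16 and ptprc on 13. In DA brains 14 of the 15 markers were lower at 168 h than at 48 h, with a median of -0.40. There 3 were called lower, against 1.04% of all probe sets called. In controls 12 of 15 were lower, with a median of -0.17 and 1 called lower, against 0.194% of all probe sets called. Their linear sum was 3953 to 4455 at 168 h against 5815 to 6022 at 48 h in DA brains, and 4076 to 4675 against 5523 to 6506 in controls. At 168 h against 24 h, 7 of 15 were higher in both treatments, with medians of 0.00 in DA brains and -0.01 in controls. Radial glia markers, 7 measured of 10, were lower at 168 h than at 48 h for 6 of 7 in DA brains, with a median of -0.31, and for 6 of 7 in controls, with -0.22. Oligodendrocyte markers, 5 measured of 11, were lower there for 5 of 5 in both treatments, with a median of -0.22 in each. At 168 h against 24 h, neuronal markers, 11 measured of 17, were lower for 10 of 11 in DA brains, with a median of -0.15, and for 7 of 11 in controls, with -0.19. Markers of mural cells and fibroblasts, 8 measured of 16, were higher for 8 of 8 in DA brains, with a median of 0.15, and for 5 of 8 in controls, with 0.14. None of these 4 last lists had a marker called in limma in the comparisons given. The part of any of these cell types in the klf11a values was not tested.

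Photoreceptor, lens and pineal markers, 14 measured of 22, had changes of opposite sign in the treatments. They were higher in DA brains than in controls at 24 h for 14 of 14, with a median of 0.21 and 0 called, for 7 of 14 at 48 h, with a median of -0.01, and for 0 of 14 at 168 h, with a median of -0.22 and 0 called. Of the 14, pde6a was at or below the blank mean on 17 arrays, gnat2 and aanat2 on 16 each and opn1mw2 on 14. Linear sums of all 14 markers at 24 h were 973 to 1782 in DA brains and 853 to 956 in control brains. At 168 h the markers summed to 696 to 829 in DA brains and 974 to 1158 in control brains. Their part in the DA differences of klf11a and klf17 was not tested. At 168 h against 24 h they were lower for 13 of 14 in DA brains and higher for 12 of 14 in controls.

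klf11b, the other copy of klf11, was at or below the blank mean on every array. It read 3.97, 4.39 and 4.43 in DA brains at 24 h, against 4.55, 4.26 and 4.80 in control brains, with overlap, and its change was -0.27 (95% interval -0.57 to 0.03, adjusted p 0.417 in limma). DA replicate 1, the array with the high blanks, held the lowest value, and the change was 0.01 without that array and control replicate 3. At 48 h klf11b read 4.55, 4.36 and 4.47 in DA brains, against 4.18 and 4.40 in control brains, and at 168 h 4.45, 4.40 and 4.51, against 4.32, 4.38 and 4.57 in control brains. The rise of klf11a had no counterpart past the threshold in klf11b, whose change at 168 h against 24 h was 0.19 (95% interval -0.11 to 0.49) in DA brains and -0.11 (95% interval -0.41 to 0.18) in controls.

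klf10, the TGF-beta-inducible early gene, was lowest in DA brains at 48 h. There all its values were below the blank means of those arrays, 4.96 to 5.04, which limits what this low point can show. At 24 h klf10 read 5.10, 5.04 and 5.04 in DA brains, against 4.97, 5.16 and 5.18 in control brains. It read 4.84, 4.78 and 4.95 in DA brains at 48 h, against 5.03 and 4.93 in control brains. It read 5.26, 5.16 and 5.03 in DA brains at 168 h, against 5.13, 5.17 and 5.30 in control brains. The 48 h DA arrays lay below the other DA arrays, a gap not counted over all probe sets, and the treatments overlapped at all 3 times. In DA brains the change at 168 h against 48 h was 0.29 (SE 0.09, 95% interval 0.10 to 0.48) with an adjusted p of 0.160 in limma, and in controls it was 0.22 (95% interval 0.00 to 0.44, adjusted p 0.451). Over the 3 times klf10 had an adjusted p of 0.209 among DA brains, which was 0.0251 with array weights.

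Genes of TGF-beta signalling, 14 measured of 28, had 0 called in limma in any of the 10 comparisons of DA or of 2 times. At 168 h against 24 h, 8 of 14 were higher in DA brains, with a median of 0.03, and 8 of 14 in controls, with a median of 0.04. With an unadjusted p under 0.05, 2 were higher and 1 lower in DA brains, against 11.2% of all probe sets in either direction. In controls 1 was higher in this way, against 11.3%. smad6a, an inhibitory Smad gene, had a change of 0.29 in DA brains (adjusted p 0.258), and tgif1, a Smad co-repressor gene, of 0.81 in controls (adjusted p 0.152). At 48 h 9 of 14 were lower in DA brains than in controls, with a median of -0.12 and 0 with an unadjusted p under 0.05.

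Circadian clock genes, a group to which klf10 and klf11 have been tied in mammals, numbered 25 measured of 39. In DA brains 0 of 25 were called in limma at 168 h against 24 h, where 0.232% of all probe sets were. An unadjusted p under 0.05 was found for 3 higher and 5 lower genes, against 11.2% of all probe sets in either direction. There nfil3-5 stood at 1.46 (adjusted p 0.0747 in limma). In controls 4 were higher and 4 lower with an unadjusted p under 0.05, against 11.3% of all probe sets in either direction. Of the 25, 2 were called higher in limma, against 0.445% of all probe sets called. These were nfil3-5, by 1.75 (adjusted p 0.0221), and cry4, a cryptochrome gene, by 0.65 (adjusted p 0.0460). The change of cry4 at 168 h against 48 h was also called, where it rose by 0.66 in DA brains (adjusted p 0.0265). For DA against control, 22 of 25 were higher at 24 h, with a median of 0.12, 9 of 25 at 48 h, with -0.02, and 12 of 25 at 168 h, with 0.00, and 0 were called. The labels do not give the hour of day at which brains were taken.

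**Figure D3:**
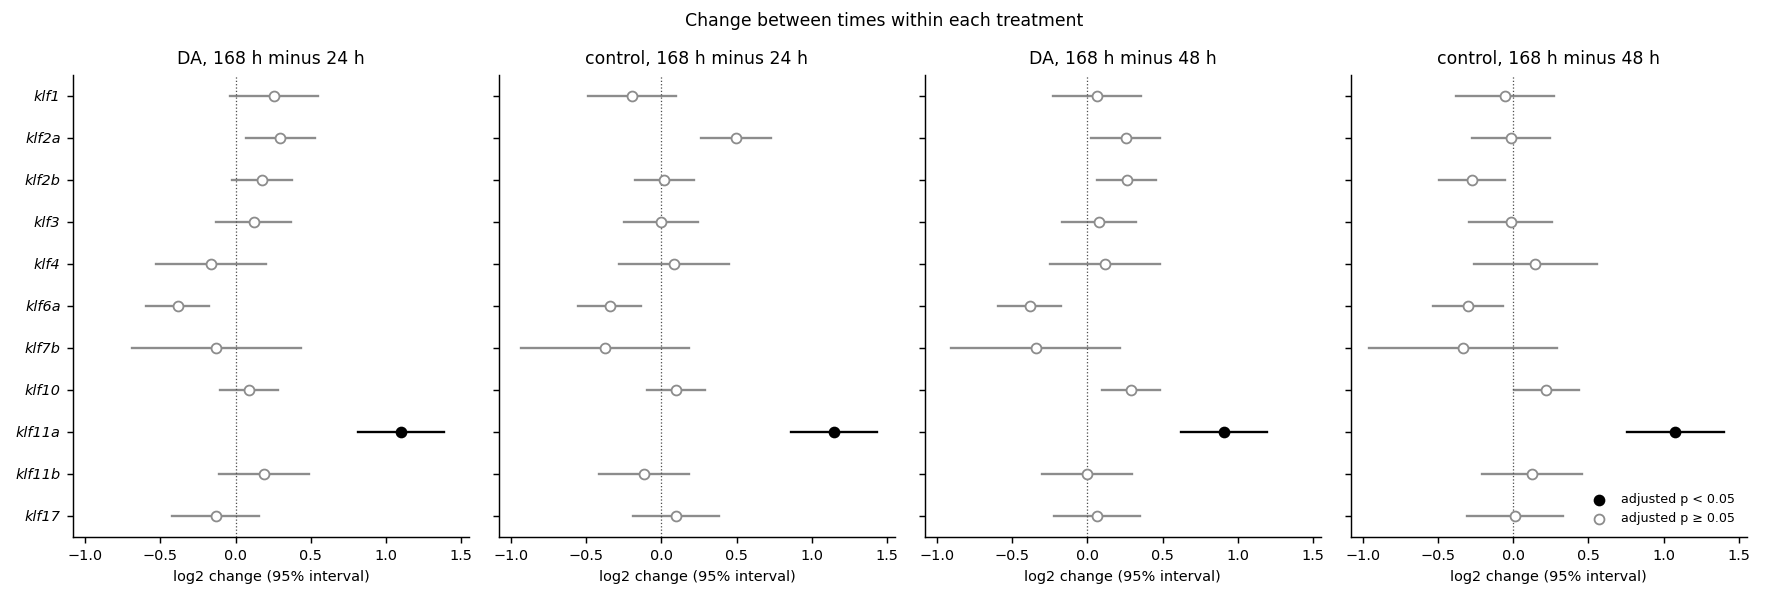
Log2 change at 168 h against 24 h and against 48 h for each KLF gene, in DA brains and in controls, with 95% intervals from the limma fit. Filled points passed an adjusted p of 0.05, which klf11a did in all 4 panels with rises of 0.91 to 1.14. klf6a lies below 0 in all 4 panels and did not pass.

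klf6a, whose mammalian form promotes neurite growth and is induced by injury in several tissues, was lowest at 168 h. At 24 h klf6a read 8.53, 8.60 and 8.38 in DA brains, against 8.72, 8.59 and 8.58 in control brains. At 48 h it read 8.43, 8.50 and 8.58 in DA brains, against 8.49 and 8.68 in control brains. At 168 h it read 7.95, 8.14 and 8.26 in DA brains, against 8.22, 8.35 and 8.29 in control brains. All 6 arrays at 168 h, from 7.95 to 8.35, were below all 11 earlier arrays, from 8.38 to 8.72, which held in this direction for 0.226% of all probe sets, and the treatments overlapped at every time.

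The change of klf6a at 168 h against 24 h was -0.39 (SE 0.10, 95% interval -0.60 to -0.18) in DA brains and -0.34 (SE 0.10, 95% interval -0.55 to -0.13) in controls, with adjusted p of 0.176 and 0.159 in limma. At 168 h against 48 h it was -0.38 (95% interval -0.59 to -0.17, adjusted p 0.0810) in DA brains and -0.30 (95% interval -0.54 to -0.07, adjusted p 0.323) in controls. The DA value against 48 h came under 0.05 with array weights, at 0.00545, with the blank level as a covariate, at 0.0484, without DA replicate 1 at 24 h, at 0.0494, and without that array and control replicate 3 at 24 h, at 0.0471. For DA against control the differences of klf6a were -0.12, -0.08 and -0.17 at 24, 48 and 168 h, and none passed. Microglia, radial glia and oligodendrocyte markers were mostly lower at 168 h than at 48 h, with the counts given above. Against 24 h, radial glia markers were lower at 168 h for 5 of 7 in DA brains and 3 of 7 in controls. Oligodendrocyte markers were lower there for 3 of 5 in DA brains and 4 of 5 in controls. Microglia and leukocyte markers were lower there for 8 of 15 in each treatment. The part of these cell types in the klf6a values was not tested.

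klf7b, a copy of the axon growth factor Klf7 of mammals, had the widest spread between replicates. It ran from 7.52 in DA replicate 1 at 24 h to 8.97 in control replicate 3 at 24 h, the 2 arrays that stood apart in the control probe sets. Its DA changes were -0.21 (95% interval -0.77 to 0.35), 0.05 (95% interval -0.58 to 0.67) and 0.04 (95% interval -0.53 to 0.60) at 24, 48 and 168 h, so that differences of moderate size in either direction were not detectable. The 24 h change turned in sign without those 2 arrays, to 0.41 (adjusted p 0.233 in limma, unadjusted p under 0.05), and was 0.17 without the DA array alone and 0.03 without the control array alone. At 168 h its medians were 8.12 in DA brains and 8.13 in control brains.

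Axon growth and regeneration genes numbered 20 measured of 31. The neuronal transcription factor gene sox11b had a change of 0.65 in DA brains at 168 h against 24 h (adjusted p 0.189 in limma). In controls it rose by 1.04 (adjusted p 0.0167) and was the 1 of 20 called, against 0.445% of all probe sets. For DA against control 0 of 20 were called at any time, and 11 of 20 were higher at 48 h, with a median of 0.08. The injury-induced factor atf3 had the lowest p there, with 0.41 (unadjusted p 0.0191, adjusted p 0.969).

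klf3, a repressor that binds CtBP, varied least. At 24 h klf3 read 7.09, 7.09 and 6.97 in DA brains, against 7.32, 7.12 and 7.31 in control brains, which did not overlap. At 48 h it read 7.20, 6.98 and 7.09, against 7.17 and 7.36 in control brains, and at 168 h 7.39, 7.17 and 6.95, against 7.40, 7.21 and 7.13 in control brains. The treatments overlapped at 48 h and at 168 h. The changes were -0.20 (95% interval -0.45 to 0.04), -0.17 (95% interval -0.45 to 0.10) and -0.08 (95% interval -0.32 to 0.17), and the mean effect of -0.15 had an unadjusted p of 0.0464 and an adjusted p of 0.636 in limma.

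In the mean effect over the 3 times, 4 of 11 genes were lower with an unadjusted p under 0.05, against 5.26% of all probe sets in this direction: klf2b, klf11a at -0.23 (adjusted p 0.384), klf3, and klf17 at -0.17 (adjusted p 0.641). The count was 2 of 11, klf2b and klf11a, with the replicate number as a block and with another variance model. Those 2 genes were also the only ones without DA replicate 3 at 24 h, DA replicate 2 at 48 h or control replicate 2 at 168 h. KLF co-regulators such as ctbp2a, sin3ab and the histone deacetylases, 13 measured of 21, had 8 of 13 below 0 in the mean effect, with a median of -0.01 and 0 called. The Sp factors, the sister family with similar zinc fingers, had 6 measured of 13 and 3 of 6 below 0, with a median of -0.02 and 0 called. Sp factors were lower in DA brains for 4 of 6 at 24 h, with a median of -0.18. For 48 h this was 2 of 6, with 0.02, and for 168 h 3 of 6, with 0.01. TGF-beta signalling genes had 9 of 14 below 0 in the mean effect, with a median of -0.09 and 0 called. Of these 14, 3 were lower with an unadjusted p under 0.05, against 5.26% of all probe sets.

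Over all 6 groups at once, 1 of 11 KLFs, klf11a, was called in limma with an adjusted p of 0.000488, against 1.65% of all probe sets. The genes most like klf11a, klf6a and klf2a, which had the lowest p in that test, were named by Pearson correlation over the 17 arrays, out of 8792 genes compared. For klf11a these were slc35e1, a solute carrier gene, with r of 0.899, insig1, a brake on sterol synthesis, with 0.895, the splicing factor gene sfpq with 0.887 and the chaperone gene hsp90b1 of the endoplasmic reticulum with 0.883. The arrays share times and normalisation, so these r describe a pattern that many genes may have. For klf11a, klf6a and klf2a alike, the similar genes were chosen on these same arrays. Their changes with time therefore follow largely from the choice and are given as description only. Between 24 h and 168 h, later minus earlier, insig1 rose by 1.35 in DA brains (adjusted p 0.00938 in limma) and by 1.08 in controls (adjusted p 0.0170), and sfpq by 0.67 in DA brains (adjusted p 0.0295) and by 0.73 in controls (adjusted p 0.0133). hsp90b1 had a change of 0.32 in DA brains (adjusted p 0.288) and rose by 0.53 in controls (adjusted p 0.0315). slc35e1 had changes of 0.37 in DA brains (adjusted p 0.124) and 0.29 in controls (adjusted p 0.181). Its values lay near the blanks, which limits what its r can show. It read 4.85 on control replicate 1 at 48 h, where the blank mean was 5.07. On control replicate 1 at 168 h it read 5.43, against 5.14.

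**Figure D4:**
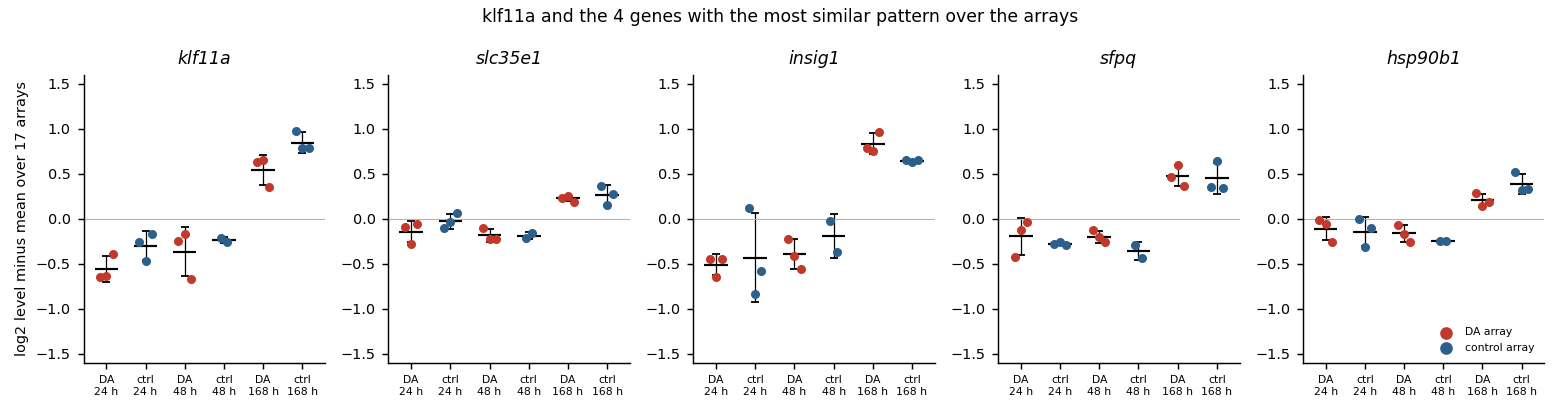
Log2 level minus the mean over the 17 arrays for klf11a and the 4 genes with the highest Pearson correlation to it, by time, with DA (red) left of control (blue). Bars are means and whiskers SDs over 3 arrays (2 for controls at 48 h). All 5 genes have their highest group means at 168 h in both treatments, which choosing the 4 genes by correlation on these same arrays favours. slc35e1 lies near the blanks.

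For klf6a the most similar genes were ptgdsb.1, of prostaglandin D synthesis, with r of 0.868, the transporter gene abcc3 with 0.809, kif20a, a kinesin gene of cell division, with 0.802, and ncf1, a phagocyte oxidase gene, with 0.784. Of these, kif20a fell by 0.86 at 168 h against 24 h in DA brains (adjusted p 0.0415 in limma) and stood at -0.62 in controls (adjusted p 0.123). For klf2a they were cebpd with 0.880 and fkbp5 with 0.875, both known to be induced by glucocorticoids, ivns1abpa with 0.871 and znrf1 with 0.843. In the same contrast fkbp5 had a change of 1.41 in DA brains (adjusted p 0.275) and rose by 2.76 in controls (adjusted p 0.0143). cebpd had a change of 0.97 in DA brains (adjusted p 0.258) and rose by 1.48 in controls (adjusted p 0.0354).

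Between 168 h and 24 h the difference of klf2a itself was 0.30 in DA brains (95% interval 0.07 to 0.53, adjusted p 0.355 in limma) and 0.50 in controls (SE 0.11, 95% interval 0.27 to 0.73, adjusted p 0.0646). At 48 h against 24 h the change was 0.04 in DA brains (95% interval -0.19 to 0.27) and 0.51 in controls (95% interval 0.25 to 0.77, adjusted p 0.328). The control value at 168 h came under 0.05 with array weights, at 0.0484, with the blank level as a covariate, at 0.0183, without DA replicate 1 at 24 h, at 0.0267, and without that array and control replicate 3 at 24 h, at 0.0340.

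klf9, a glucocorticoid-induced KLF with a wider range of 3.47, had a change of 1.52 in DA brains at 168 h against 24 h (adjusted p 0.196 in limma) and rose by 2.32 in controls (adjusted p 0.0221). That call was lost in 7 alternatives: with spike-ins (adjusted p 0.0900) or the GAPDH difference (0.0987) as a covariate, with these groups alone (0.0597), and without control replicate 2 (0.0702) or 3 (0.0772) at 24 h or control replicate 1 (0.108) or 3 (0.0560) at 168 h. Over the arrays the r of klf9 was 0.829 with klf2a, 0.727 with klf11a and -0.688 with klf6a. Glucocorticoid-linked genes other than klf9, 21 measured of 28, were lower in DA brains for 14 of 21 at 48 h, with a median of -0.21 and 0 called. Of the 21, 3 were lower with an unadjusted p under 0.05, where 2.12% of all probe sets were. There fkbp5 stood at -1.72 (adjusted p 0.763 in limma) and hsd11b2 at -0.77 (adjusted p 0.668). With time, 1 of 21 rose in DA brains at 168 h against 24 h, hsd11b2 by 0.99 (adjusted p 0.0347), against 0.232% of all probe sets called, and 2 of 21 in controls, fkbp5 and cebpd, against 0.445%. At 168 h against 48 h 2 of 21 rose in DA brains, against 1.04% of all probe sets called. These were hsd11b2, by 1.04 (adjusted p 0.0113 in limma), and fkbp5, by 1.98 (adjusted p 0.0414). With an unadjusted p below 0.05, 5 of 21 were higher and 2 lower, against 11.7% of all probe sets in either direction. In controls 0 of 21 were called, and 0 were higher and 1 lower with an unadjusted p below 0.05, against 10.8%. Between 24 h and 48 h, 8 of 21 were higher and 0 lower in this way in controls, against 7.1%. DA brains had 1 higher and 1 lower there, against 16.5%. From 24 h to 168 h, 10 were higher and 1 lower in this way in controls, against 11.3%. DA brains had 6 higher and 0 lower, against 11.2%.

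Activity and stress early genes, a class in which several KLFs are often counted, had mostly positive changes at 48 h, where klf2b had a negative one. Of 26 measured of 41, 20 were higher in DA brains, with a median of 0.34, 11 higher and 1 lower with an unadjusted p under 0.05, as 4.73% of all probe sets had in either direction, and 0 called in limma. fosab stood at 1.09 (adjusted p 0.726) and junbb at 0.72 (adjusted p 0.668). Among the KLFs 2 of 11, klf7b and klf11b, were above 0 at 48 h, with changes of 0.05 and 0.16. The 48 h controls, 2 arrays, were low for the early genes. Within controls 16 of 26 were lower at 48 h than at 24 h, with a median of -0.15. Then 21 of 26 were higher at 168 h than at 48 h, with 0.25. DA brains had 20 of 26 higher at 48 h than at 24 h, with a median of 0.17. Only 12 of 26 were higher there at 168 h than at 48 h, with -0.04.

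Branched-chain amino acid and lipid genes linked in mammals to klf15, a factor not among the 11 genes here, had 18 measured of 22. At 48 h 15 of 18 were higher in DA brains, with a median of 0.19, 7 with an unadjusted p under 0.05, as 4.73% of all probe sets had, and 0 called; hadhb stood at 0.60 (adjusted p 0.396) and cpt1ab at 0.85 (adjusted p 0.529). In DA brains 5 of 18 fell at 168 h against 48 h, where 1.04% of all probe sets were called. Among them were cpt1ab, by 1.23 (-1.23, adjusted p 0.00248 in limma), and hadhb, by 0.69 (-0.69, adjusted p 0.00506). In controls 0 of 18 were called, and 1 higher and 1 lower gene had an unadjusted p under 0.05, against 10.8% of all probe sets.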

How the data were processed

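Whole-brain RNA pools were read on the 1-colour Affymetrix Zebrafish Genome array. The values deposited by the authors are log2 levels per probe set. The tools named in the submitters' processing notes are oligo, RMA and limma; no version of them is given in the sources read here. The quantile step of RMA makes the arrays' distributions alike, so a change shared by most transcripts is removed. The file has 15617 probe sets, of which 115 are manufacturer controls, used here to describe the arrays; the other 15502 all entered the tests. The file held 0 columns of samples outside the series. Values ran from 3.65 to 15.0.

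Symbols came from the platform annotation, updated by Entrez number for 10711 of the 10795 probe sets with 1 symbol, and 135 probe sets had several. For klf10 the platform's Entrez number was not the current one for that symbol, and the platform symbol was kept. Lists of genes use the probe set with the highest mean, 1 for each of 8793 genes. The 11 genes, the lists and the rule for naming genes were chosen with earlier results of these data known.

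One linear model with a mean for each group was fitted to the 17 arrays in limma 3.58.1 (R 4.3.3; 11 residual and 4.39 prior degrees of freedom, median residual SD 0.16), and tests were moderated and two-sided. Per-array values were given for genes called in any comparison, those with the 4 lowest p in each DA comparison and the 3 lowest in each F test over time. From each list up to 2 genes with the lowest p were named for selected comparisons, and 4 similar genes for each of 3 KLFs. Other settings were other scalings, a filter on dim probe sets, another variance model, weights per array, the replicate number as a block, quality measures as covariates, fewer groups, a threshold of 0.10 and leaving out arrays. Same-numbered DA and control arrays had correlated deviations over 0.1 in 2 of 8 pairs, from -0.33 to 0.22, so the numbers were not taken as pairs. The procedure was also run on simulated data, the outcome of which is not reported here.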

Additional observations from a re-analysis of the deposited data

How the results depend on the processing

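The count of KLFs called stayed at 0 for DA against control at 24, 48 and 168 h and for the difference between times, in every alternative run. For the mean effect it was 1, klf2b, with array weights and without DA replicate 1 and control replicate 3 at 24 h together, and 0 to 1 when arrays were left out in turn. For time among controls, 1 in the fit reported, it was 2 with array weights, with a threshold of 0.10, with the blanks as a covariate and without those 2 arrays, the added gene being klf2a, and 0 to 2 when arrays were left out. For time among DA brains, also 1, it was 3 with array weights (klf6a, klf10 and klf11a) and 2 at a threshold of 0.10, and 1 without any single array. Of 4567 single values of klf9 and the 11 genes under alternatives, 4532 kept their side of the threshold, 23 gained a call, 12 lost it and 0 called values changed sign; 251 signs changed, all of values that were not called and had an unadjusted p of at least 0.05 in the fit reported. Many of these values kept their size by design, since leaving out an array moves only changes that use its group. With the replicate number as a block, klf11a rose by 1.10 in DA brains (adjusted p 0.00635 in limma) and 1.14 in controls (adjusted p 0.0146) at 168 h against 24 h, and the counts of KLFs stayed 0 for each DA comparison and 1 for time in each treatment. Counts over all probe sets were less stable as arrays were left out: 0 to 217 at 24 h (5 reported), 0 to 4 at 48 h (0), 0 to 163 for the mean effect (0), 0 to 280 for time among controls (62) and 47 to 305 for time among DA brains (179), the highest being without DA replicate 1 at 24 h, except at 48 h (control replicate 2 at 48 h) and for the mean effect (DA replicate 1 at 168 h). Over the other settings they were 0 to 327, 0 to 1, 0 to 209, 4 to 333 and 77 to 1662. The cause of these shifts was not tested. Averaging the probe sets of a gene was not run, since each gene has 1, and fitting only the groups compared gives no mean effect or difference between times. klf1, klf10 and klf11b lie near or below the blanks, which limits what their values can show.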
